A study of Mus musculus with 12 samples.

Results

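The D-type cyclins, their kinases and the retinoblastoma family were followed in mouse primary hippocampal cultures that had received a miR-148a-3p mimic. The family was taken by gene name from the per-sample count files and comprises 8 genes among the 48709 listed: the cyclins Ccnd1, Ccnd2 and Ccnd3, the kinases Cdk4 and Cdk6, and the pocket proteins Rb1, Rbl1 and Rbl2. All 8 passed the filter on low counts, as did 18847 genes in all.

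Cultures were prepared from hippocampi of embryonic day 17 (E17) embryos of CD1 mice and treated at day 10 in vitro (DIV10). For 48 h, 6 samples received lipid nanoparticles with the mimic, a synthetic RNA duplex, and 6 received the same particles with a negative control oligonucleotide, both together with the apolipoprotein ApoE4, and poly(A) RNA was sequenced at DIV12. No genotype or other agent differed between the groups, hippocampi of several embryos were pooled, and the labels do not say whether the 6 samples of a group were separate cultures, so the p-values measure the spread between these samples. Totals ran from 20018234 to 37149112 counts per library, and the 2 shallowest were control replicates 1 and 2.

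D-type cyclins are the cyclins that mitogens and developmental signals induce first, and they activate CDK4 and CDK6. The active kinases phosphorylate the pocket proteins RB1, p107 (Rbl1) and p130 (Rbl2), which releases E2F transcription factors and permits entry into S phase. Cyclin D2 is the D-type cyclin known to be needed for adult hippocampal neurogenesis, and RB1 and p130 are known for keeping neurons out of the cell cycle.

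The guide strands of both reagents are shown because base pairing of the seed, bases 2 to 8 in capitals, selects microRNA targets. The mimic had the same letters as mmu-miR-148a-3p in RefSeq.
Mimic: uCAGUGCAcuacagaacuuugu
Negative control: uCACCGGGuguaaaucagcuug
In the longest annotated 3' untranslated region (UTR) of each member, from 899 bases in Cdk4 to 10217 bases in Cdk6, no match was found to either seed, as bases 2 to 8 or as bases 2 to 7 followed by an A. Of the 15082 tested genes with an annotated 3' UTR, 21.9% held a match to the mimic seed and 4.42% a match to the seed of the negative control.

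Of the 8 members, 4 were higher in mimic than in control samples (Ccnd2, Cdk4, Rb1 and Rbl1) and 2 were lower (Ccnd1 and Cdk6) at an edgeR adjusted p under 0.05, while Ccnd3 and Rbl2 did not pass. Without control replicates 1 and 2 the same 4 and 2 members passed, but the count of lower members fell to 1, Cdk6, in 9 of 12 fits that left out a single library and under several other settings. Of all genes tested, 22.2% passed, 11.5% as higher and 10.7% as lower. The median log2 fold change over all tested genes was -0.012, and 5% of genes lay below -0.47 and 5% above 0.50. Levels are given as CPM, that is counts scaled to a common library total. The groups did not overlap in 5 members, the 4 that were higher and Cdk6, against 13.3% of all genes tested. These are bulk samples, in which a change in the share of cells that express a gene and a change in RNA per cell cannot be told apart.

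**Figure D1:**
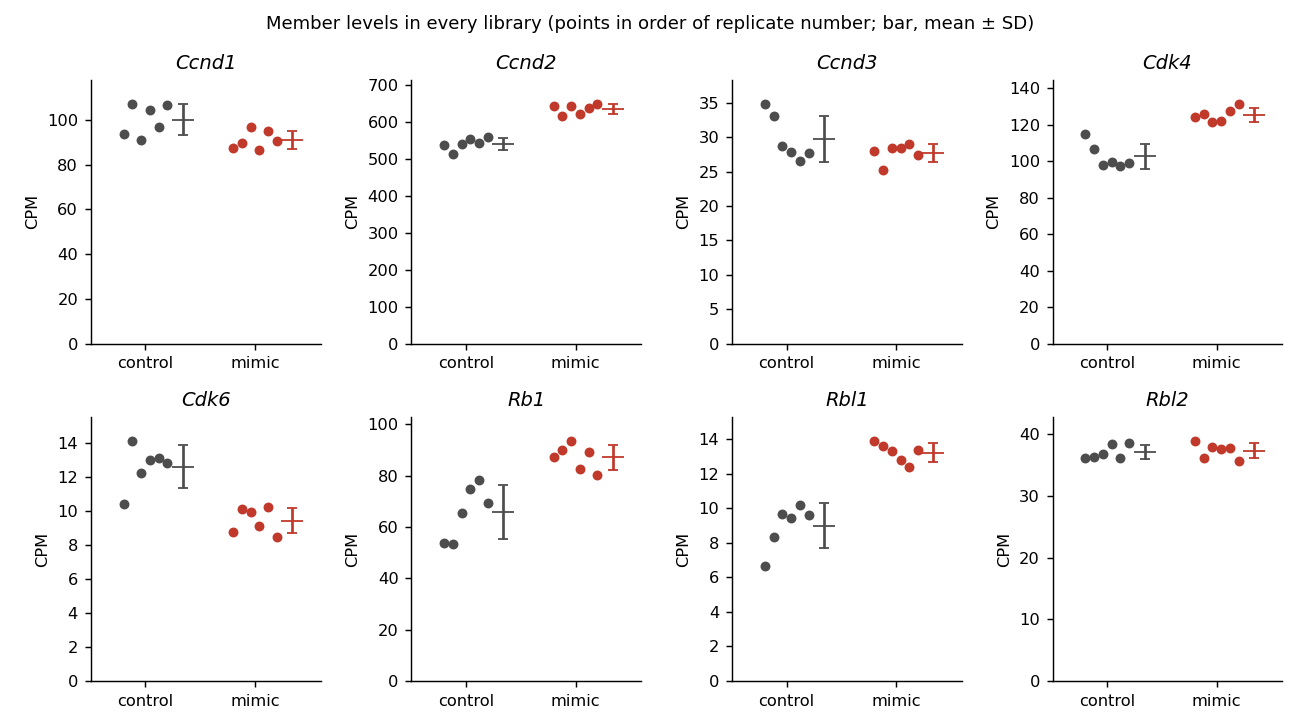
CPM of the 8 members in each library, control in gray and mimic in red, with points in order of replicate number and the mean ± SD beside them; each axis starts at 0. Mimic samples lie above every control sample in Ccnd2, Cdk4, Rb1 and Rbl1 and below every control sample in Cdk6, and the groups overlap in Ccnd1, Ccnd3 and Rbl2.

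Ccnd2 (ENSMUSG00000000184; chromosome 6, 127125162 to 127152193, minus strand, build mm10) had the highest level of the family. Its lowest, median and highest values were 513.3, 542.2 and 560.0 CPM in control and 616.8, 640.1 and 649.4 CPM in mimic samples. All 6 mimic samples lay above the highest control sample. On the log2 scale Ccnd2 was higher by 0.23 (SE 0.030; adjusted p = 2.53e-05 by edgeR), a 1.17-fold higher mean.

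Ccnd1 (ENSMUSG00000070348; chromosome 7, 144929931 to 144939925, minus strand), the cyclin most directly linked to mitogen signalling, went the other way. It measured 91.0, 100.9 and 107.3 CPM (lowest, median, highest) in control and 86.6, 90.2 and 97.0 CPM in mimic samples. The groups overlapped, and 4 of 6 mimic samples lay below the lowest control sample. The log2 fold change of -0.14 (SE 0.047) passed narrowly (edgeR adjusted p = 0.0461). This call was lost without any 1 of control replicates 2, 4, 5 and 6 or mimic replicates 1, 2, 4, 5 and 6, with log2 fold changes from -0.15 to -0.11 and edgeR adjusted p-values from 0.0506 to 0.116. It was also lost with RLE size factors (edgeR adjusted p = 0.0515), without a filter on low counts (0.0529) and in the limma fit (0.0551). It was kept when control replicate 1 or 3 or mimic replicate 3 was the library left out.

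Ccnd3 (ENSMUSG00000034165; chromosome 17, 47505051 to 47599691, plus strand) measured 26.5, 28.3 and 34.9 CPM in control and 25.3, 28.2 and 29.0 CPM in mimic samples. Both medians lay close together, and control replicates 1 and 2, at 34.9 and 33.1 CPM, were above all other libraries. The difference on the log2 scale was -0.10 (SE 0.063; adjusted p = 0.327 by edgeR), and without these 2 libraries it was 0.0036 (edgeR adjusted p = 0.963). The pseudogene Ccnd3-ps shares sequence with Ccnd3, so reads of the one may be missing from or added to the other.

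The makeup of the D-type cyclin RNA also differed between groups. Per kilobase of exon, Ccnd2 made up 70.0% ± 1.55 (SD, n = 6) of the summed D-type cyclin level in control and 75.0% ± 0.69 (SD, n = 6) in mimic samples. Ccnd1 made up 25.8% ± 1.46 and 21.5% ± 0.698 (SD, n = 6 each). Ccnd3 made up 4.14% ± 0.525 and 3.52% ± 0.143 over the union of exons, but 11.2% ± 1.31 and 9.54% ± 0.364 over the longest coding transcript (SD, n = 6 each). The ratio of Ccnd1 to Ccnd2 per kilobase was 0.370 ± 0.0291 in control and 0.286 ± 0.0119 in mimic samples (SD, n = 6 each), with no overlap, although Ccnd1 alone overlapped. The summed level was 82.2 ± 2.09 CPM per kilobase in control and 90.0 ± 1.98 in mimic samples (SD, n = 6 each). These shares and ratios are descriptions of the same counts and were not tested.

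Cdk4 (ENSMUSG00000006728; chromosome 10, 127063534 to 127067920, plus strand) and Cdk6 (ENSMUSG00000040274; chromosome 5, 3341485 to 3531008, plus strand) encode the alternative kinase partners of the D-type cyclins, and they moved in opposite directions. Cdk4 had 97.7, 99.4 and 114.9 CPM in control and 121.3, 125.1 and 131.6 CPM in mimic samples. The highest controls were replicates 1 and 2, and all mimic samples lay above them. Cdk4 was higher by 0.29 on the log2 scale (SE 0.042; adjusted p = 6.93e-05 by edgeR), or 0.35 without control replicates 1 and 2.

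Cdk6 had 10.4, 12.9 and 14.1 CPM in control and 8.47, 9.51 and 10.2 CPM in mimic samples. All 6 mimic samples lay below the lowest control, replicate 1, by a narrow margin, and the other controls started at 12.2 CPM. On the log2 scale the difference was -0.42 (SE 0.071; adjusted p = 0.000314 by edgeR), a mean of 0.748 times that of control samples. Behind these values stood 206 to 451 counts per library. Cdk6 contributed 2.79% ± 0.365 of the summed kinase level per kilobase in control and 1.72% ± 0.153 in mimic samples (SD, n = 6 each), and the ratio of Cdk4 to Cdk6 was 35.5 ± 5.96 and 57.6 ± 5.53.

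Among the pocket proteins, Rb1 (ENSMUSG00000022105; chromosome 14, 73183673 to 73325822, minus strand) had 53.5, 67.4 and 78.4 CPM in control and 80.1, 88.2 and 93.5 CPM in mimic samples. The 2 lowest controls were replicates 1 and 2, and no mimic sample reached down to the highest control. Rb1 was higher by 0.40 on the log2 scale (SE 0.085; adjusted p = 0.00257 by edgeR), or 0.28 without control replicates 1 and 2 (edgeR adjusted p = 0.000836).

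Rbl1 (ENSMUSG00000027641; chromosome 2, 157145893 to 157204534, minus strand), the pocket protein gene known to be transcribed in dividing cells, had the largest change of the family with all libraries. It measured 6.67, 9.55 and 10.2 CPM in control and 12.4, 13.4 and 13.9 CPM in mimic samples. The groups were well apart, with control replicates 1 and 2 again lowest. The change was 0.54 on the log2 scale (SE 0.078; adjusted p = 6.08e-05 by edgeR), or 0.44 without those 2 libraries, where Cdk6 was at -0.44, and 7.87% of all tested genes had a change as large in either direction.

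Rbl2 (ENSMUSG00000031666; chromosome 8, 91070057 to 91123844, plus strand), which encodes the pocket protein of resting cells, was close to equal in the groups. It measured 36.2, 36.6 and 38.6 CPM in control and 35.6, 37.6 and 38.9 CPM in mimic samples. The groups overlapped almost fully, and the log2 fold change was 0.01 (SE 0.036, edgeR adjusted p = 0.913), with a 95% interval from -0.06 to 0.08. With Rb1 and Rbl1 higher, the share of Rbl2 in the summed pocket protein level per kilobase was 28.6% ± 3.00 in control and 22.8% ± 0.850 in mimic samples (SD, n = 6 each).

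**Figure D2:**
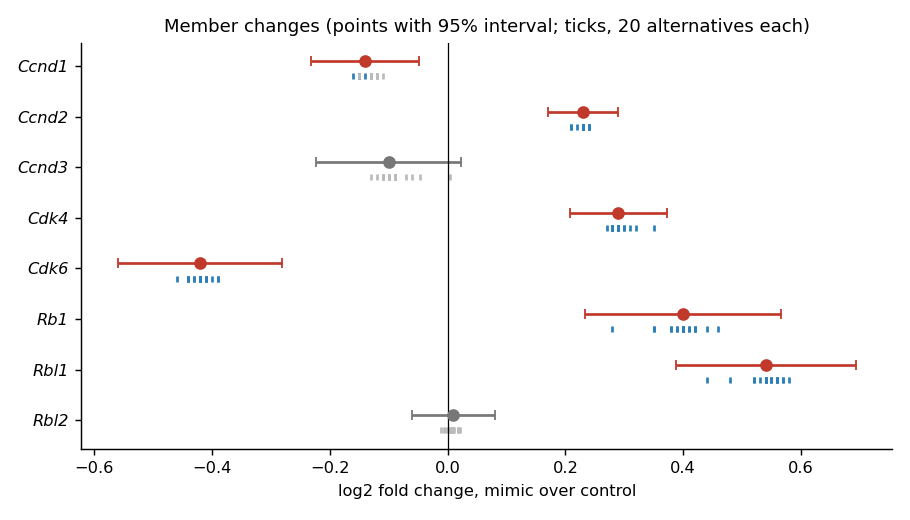
The log2 fold change of each member, mimic over control, with its 95% interval (red, passed; gray, not passed), above ticks for the 20 other fits, which are blue where the member passed and gray where it did not. Ccnd2, Cdk4, Cdk6, Rb1 and Rbl1 passed in every fit, Ccnd1 in 7 of 20, and Ccnd3 and Rbl2 in none.

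Levels of different genes were compared per kilobase of the union of their exons. In control samples the order was Ccnd2 (57.6 ± 1.72 CPM per kilobase), Cdk4 (31.6 ± 2.12), Ccnd1 (21.3 ± 1.5), Rb1 (11.0 ± 1.74), Rbl2 (4.91 ± 0.151), Ccnd3 (3.40 ± 0.387), Rbl1 (1.5 ± 0.216) and Cdk6 (0.902 ± 0.0899; SD, n = 6 each). No neighbours in this order overlapped between libraries, and mimic samples had the same order. The order depends on the length used for Ccnd3. Over its longest coding transcript Ccnd3 measured 14.1 ± 1.61 CPM per kilobase, and it could then not be told from Rb1 at 14.1 ± 2.25 in control samples. In mimic samples these were apart, at 13.1 ± 0.631 for Ccnd3 and 18.7 ± 1.07 for Rb1 (SD, n = 6 each).

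**Figure D3:**
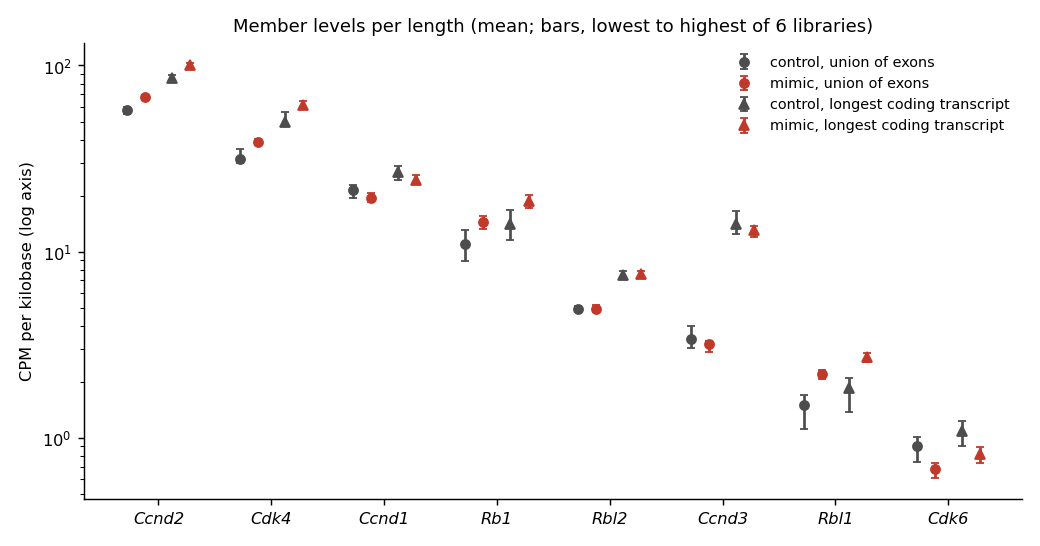
CPM per kilobase on a log axis for the 8 members in control (gray) and mimic (red) samples, over the union of exons (circles) or the longest coding transcript (triangles), with bars from the lowest to the highest of 6 libraries. Ccnd2 is highest and Cdk6 lowest with both lengths, and Ccnd3 moves from 3.40 to 14.1 in control samples.

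Exons of 7 members overlap those of another gene on the opposite strand, and the library kit does not mark strand, so reads in the shared stretches cannot be assigned. The largest shares of a member's exons were 1100 bases of Ccnd1 shared with LTO1 (23.4%) and 641 bases of Cdk4 shared with Tspan31 (19.7%), followed by 892 bases of Rbl2 shared with Gm45464 (11.8%). LTO1 did not pass, with a difference of 0.00 (SE 0.045). Tspan31 was higher by 0.15 (SE 0.051, edgeR adjusted p = 0.0439) and Rcbtb2, which overlaps Rb1, by 0.17 (SE 0.042, edgeR adjusted p = 0.00662). Bysl at Ccnd3 and Aktip at Rbl2 did not pass, at -0.02 and -0.08. Rbl1 overlapped no other exon.

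The genes around the members were read from 9 lists with 90 genes, all tested, of which 43 were higher and 7 lower, with a median log2 fold change of 0.14. Over all genes tested 11.5% were higher and 10.7% lower, so 1 or 2 calls in a list are not a trait of that list. Downstream of the pocket proteins, 7 of 10 E2F and DP factors were higher and none lower (median 0.23). E2f2, an activator E2F named although its mean of 78.0 counts was under the minimum for naming, was higher by 1.00 (SE 0.092, edgeR adjusted p = 4.52e-07), from 1.73 ± 0.208 to 3.44 ± 0.182 CPM (SD, n = 6 each). E2f8, an atypical repressor E2F of S phase, was higher by 0.93 (SE 0.081, edgeR adjusted p = 2.63e-07) and E2f6, a repressor that acts without pocket proteins, by 0.51 (SE 0.045, edgeR adjusted p = 2.65e-07). E2f1, E2f4 and E2f5 did not pass.

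All 15 S-phase genes known as E2F targets were higher, with a median of 0.54. The replicative helicase subunits Mcm3 and Mcm5 had log2 fold changes of 1.04 (SE 0.061) and 0.99 (SE 0.049). Mcm3 went from 21.8 ± 1.49 to 44.7 ± 3.84 CPM and Mcm5 from 19.5 ± 1.21 to 38.7 ± 2.06 CPM (SD, n = 6 each). Of the genes for cyclins E and A, CDK2 and their regulators, 8 of 9 were higher (median 0.58). Fbxo5, an inhibitor of the anaphase-promoting complex, was higher by 1.03 (SE 0.090) and Ccna2, the S-phase cyclin A2, by 1.02 (SE 0.060). Ccna2 measured 17.6 to 22.8 CPM in control and 41.0 to 44.4 CPM in mimic samples.

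The MuvB core joins p130 or p107 in the DREAM repressor and B-Myb or FOXM1 in cycling cells. Of the 7 genes of this list, 5 were higher and 1 was lower (median 0.20). Foxm1 was higher by 1.19 (SE 0.068, edgeR adjusted p = 2.58e-09) and Mybl2, which encodes B-Myb, by 0.85 (SE 0.090, edgeR adjusted p = 2.35e-06). The core subunit gene Lin52 was lower, at -0.23 on the log2 scale (SE 0.073; adjusted p = 0.0333 by edgeR), and its groups overlapped.

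The CDK inhibitors split, with 2 of 7 higher, 2 lower and a median of -0.16. Cdkn2c (p18), which binds CDK4 and CDK6, went from 11.1 ± 1.26 to 21.7 ± 0.966 CPM (SD, n = 6 each), which is 0.98 on the log2 scale (SE 0.063). Cdkn1a (p21) was higher by 0.55 (SE 0.038). Cdkn2b (p15), also an inhibitor of CDK4 and CDK6, went from 9.38 ± 1.24 to 6.35 ± 0.987 CPM (SD, n = 6 each), which is -0.56 on the log2 scale (SE 0.10). Cdkn1c (p57), named although its mean of 51.0 counts was under the minimum for naming, was the other that was lower, at -0.62 (SE 0.17, edgeR adjusted p = 0.0114). Its groups overlapped, at 1.41 to 2.8 CPM in control and 1.06 to 1.87 CPM in mimic samples.

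None of 14 genes for the turnover and assembly of cyclin D complexes passed by edgeR, with a median of 0.00. At an unadjusted p under 0.05 there were 4 (Ambra1, Cul7, Fbxo4 and Fbxw8); DESeq2 called 1, Ambra1, a gene for a ubiquitin ligase receptor of D-type cyclins, the limma fit called 0, and edgeR without control replicates 1 and 2 called 2, Fbxw8 and Hsp90aa1. Of 8 corepressors of RB1, the histone methyltransferase Ezh2 alone passed, higher by 0.61 (SE 0.052, edgeR adjusted p = 1.87e-07; list median 0.04). Of 12 regulators upstream of the D-type cyclins, 5 were higher and 3 lower (median 0.11). The receptor Notch1 and the progenitor factor Sox2 were higher by 0.47 (SE 0.066) and 0.38 (SE 0.046), while Myc, at -0.33 (SE 0.059), and Stat3, at -0.24 (SE 0.040), were lower. Of 8 genes for kinases of postmitotic cells and their partners, 1 passed, Cdk5r1 (p35, the activator of CDK5) at -0.16 (SE 0.034, edgeR adjusted p = 0.00202; list median 0.05).

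**Figure D4:**
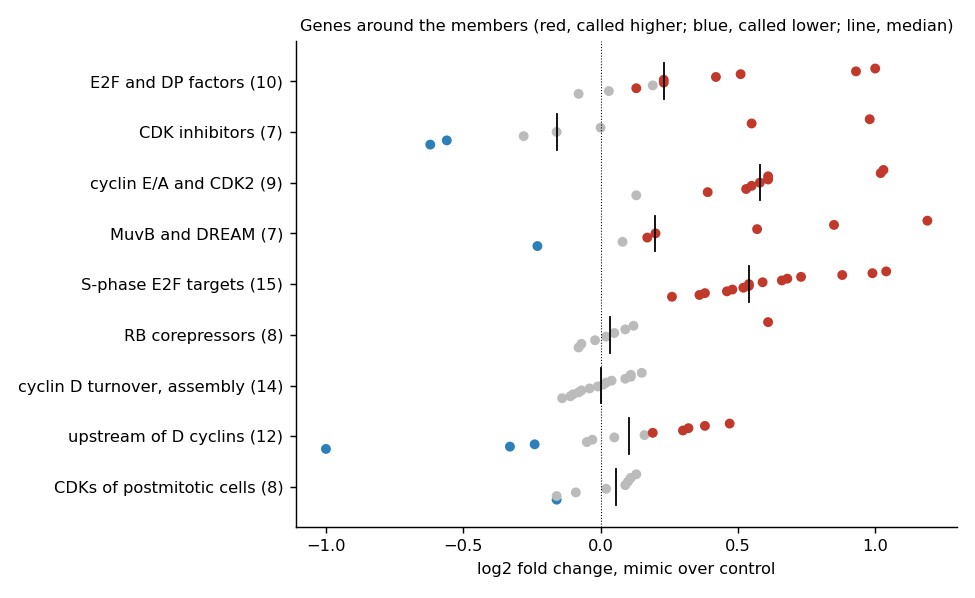
Log2 fold changes, mimic over control, of the 90 genes around the members, by list with the number of genes in parentheses; red marks genes called higher, blue genes called lower, gray genes that did not pass, and the vertical line the list's median. All 15 S-phase genes lie to the right of 0, and none of the 14 turnover and assembly genes passed by edgeR.

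Matches to the mimic seed were found in the 3' UTRs of 20 of the 90 genes, a share close to the 21.9% of all tested genes. Of the 20, 8 were higher, 3 were lower (Cdkn2b, Stat3 and Cdk5r1) and 9 did not pass. Of all 90 genes, 43 were higher and 7 lower. Examples are shown, capitals marking the match, for Cdkn2b, the only CDK inhibitor with a match that was lower, and for an E2F factor and a cyclin with 2 matches each, E2f3 and Ccna2.
Cdkn2b (mm10 chr4:89306598-89306623, minus strand): gtagatgagagGCACTGAagtggttt
E2f3 (mm10 chr13:29908506-29908532, minus strand): gagacgggaaaTGCACTGAtagaatgc
E2f3 (mm10 chr13:29907860-29907885, minus strand): cctactggaaaTGCACTGtggggttt
Ccna2 (mm10 chr3:36565543-36565568, minus strand): cagagctgttaGCACTGAgtatgtat
Ccna2 (mm10 chr3:36565430-36565455, minus strand): gccttctggttTGCACTGgtctgagc
The first E2f3 match has 8 bases and the others have 7. Both E2f3 (log2 fold change 0.13, SE 0.043, edgeR adjusted p = 0.0357) and Ccna2 were higher. The groups overlapped in E2f3, at 43.3 to 51.5 CPM in control and 50.0 to 54.8 CPM in mimic samples.

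Promoters, taken as 250 bases before to 50 bases after the start of the gene in RefSeq (GRCm38.p6), were searched on both strands for the E2F consensus, that is TTTCCCGC, TTTCGCGC, TTTGCCGC or TTTGGCGC, which do not overlap the other motif searched, TTTGAA. Of 32851 promoters, 2.26% held the first and 17.9% the second. Of the members, 5 had an entry, and Rbl1 alone held the E2F consensus, 18 bases before its start. Rbl2 held TTTGAA.
Rbl1 promoter (GRCm38.p6 chr2:157204534-157204563, minus strand): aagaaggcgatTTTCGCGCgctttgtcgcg
Of the genes with an entry in the other lists, the E2F consensus was held by 7 of 13 S-phase genes, 4 of 8 E2F and DP genes and 3 of 5 corepressors of RB1, in which Ezh2 alone was higher. It was held by 2 of 7 genes of the cyclin E and A list, 1 of 6 CDK inhibitors, 1 of 5 MuvB genes, 1 of 9 upstream regulators, 0 of 10 turnover and assembly genes and 0 of 4 genes of the postmitotic list. TTTGAA was held by 3 of 8 E2F and DP genes, 3 of 7 genes of the cyclin E and A list, 3 of 9 upstream regulators and 2 of 5 MuvB genes. In each of the remaining lists, 1 gene held it, among them 1 of 13 S-phase genes. A match of letters is a description and not a site.

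The labelled cell type was checked with markers. The neuronal genes Map2 and Rbfox3 had 2362.3 ± 185.1 and 122.8 ± 10.3 CPM in control samples (SD, n = 6 each). The summed level of 10 neuronal markers was 7483.1 to 8229.5 CPM in control and 7474.8 to 7836.7 CPM in mimic samples, with 1 of them higher and 2 lower. The neuronal tubulin gene Tubb3 was lower, from 802.5 ± 30.0 to 644.0 ± 26.4 CPM (SD, n = 6 each; edgeR adjusted p = 4.65e-06). Glial and dividing cells were present as well. Of 8 proliferation markers 8 were higher, and their summed level was 171.2 to 212.0 CPM in control and 362.1 to 385.5 CPM in mimic samples, with Mki67 at 60.0 ± 5.28 and 117.8 ± 3.94 CPM (SD, n = 6 each).

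Markers of several other cell types also differed between the groups, some higher and some lower in mimic samples. Of 8 markers of the oligodendrocyte lineage, 5 were higher and 1 lower, with summed levels of 392.7 to 681.0 CPM in control, the highest in replicate 1, and 767.7 to 963.0 CPM in mimic samples. Of 8 astrocyte markers, 6 were higher and 1, Gfap, was lower (4826.7 to 5313.4 and 5654.3 to 6112.8 CPM), and of 8 neural progenitor markers 4 were higher and none was lower (1589.2 to 1768.3 and 1723.9 to 1798.3 CPM). Of 6 ependymal markers 4 were lower (90.2 to 109.6 and 68.4 to 89.0 CPM), of 6 endothelial markers, 5 of them tested, 2 were lower (46.6 to 68.7 and 28.3 to 50.8 CPM, nearly all from Kdr, since the other 5 had means under 1 CPM), and of 7 mesenchymal markers 1 was lower (160.3 to 205.7 and 80.7 to 210.8 CPM). Of 8 microglial markers 1 was lower (22.0 to 25.9 and 20.9 to 29.4 CPM). Of the defining genes, Cx3cr1 was near 0, at 0.717 ± 0.119 CPM in control samples, and Csf1r was at 3.2 ± 0.42 CPM. The endothelial gene Cldn5 was at 0 in all control libraries. The part of these cell types in the values of the members was not tested.

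Within the groups, the genes most like a member were sought by Pearson's r of log2 CPM over the 12 samples, after each group's mean was taken out, among 11793 other genes with a mean of at least 100 counts. Cdk4 was closest to Prdx5 (r = 0.988), Ndufa3 and Srp14, and Ccnd3 to Plvap (r = 0.981), Sgsm1 and Ephb6. Rb1 was closest to Usp46 (r = 0.975), Smc4 and Impad1, and Rbl1 to Itgb3bp (r = 0.980), Cnot1 and Btaf1. In these 4 members, and in Ccnd2, control replicates 1 and 2 lay at one end of the controls. The values of r were lower for Ccnd2 with Emsy (0.906), Adamts6 and Pdpr, Cdk6 with Prss23 (0.914), Med20 and Anxa3, and Rbl2 with Nemp2 (0.870), Itgav and Sowahc. All values come from the same 12 libraries, whose depth they share.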

How the data were processed

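The authors aligned 50 bp single-end reads of poly(A)-selected TruSeq v2 libraries to mm10 with STAR 2.5.2b and counted reads per gene with featureCounts (Subread 1.5.1), per the submitters' processing notes and the labels; the deposited values used are these raw counts. The table of the series, in which the authors deposited a normalized signal (counts divided by 1 factor per sample), served 1 alternative. A gene was tested where 6 or more of the 12 samples held 5 or more counts, with the quasi-likelihood test of edgeR 4.0.16 (R 4.3.3) on TMM-scaled totals, with Benjamini-Hochberg adjustment over all 18847 genes and a threshold of 0.05. CPM are on the same totals. The fit was tested on simulated data. Alternatives were DESeq2 1.42.0, limma 3.58.1 on log2(value + 1), other scalings and filters, a replicate block, each library left out, and control replicates 1 and 2 left out, which was chosen after seeing the data. Symbols, exons and UTRs came from GENCODE M21, which matched 48349 of 48709 genes. 

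Members and lists were chosen with earlier results of these data known. Named besides the members are, per list, up to 2 genes called higher and 2 called lower with the largest change and a mean of at least 100 counts, the 3 genes most like each member (those for Ccnd1 are not reported here), defining markers and genes with overlapping exons. The genes E2f1, E2f2, E2f3, E2f4, E2f5 and Cdkn1c and the markers Gfap and Kdr, and the turnover genes with an unadjusted p under 0.05 or another fit's call, were named after their values were seen.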

Additional observations from a re-analysis of the deposited data

Results flagged for a closer look

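In 16 groups (8 members in control and mimic samples), no single library met the limit of the gap test at the 95% level, where chance gives about 1 in 20 groups. The test cannot flag 2 libraries that deviate together, as control replicates 1 and 2 did in Ccnd3, Cdk4, Rb1 and Rbl1.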

How the results depend on the processing

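Over 20 alternatives, Ccnd2, Cdk4, Cdk6, Rb1 and Rbl1 kept their direction and passed in each. The number of members called lower was 1 in place of 2 with RLE size factors, with no filter, with the limma fit and with the replicate block, and 1 to 2 when single libraries were left out, each time because Ccnd1 no longer passed; members called higher were 4 throughout. Sample numbers are shared between the groups, but samples of 1 number did not deviate together (correlations from -0.038 to 0.093), so the numbers were not taken to pair the samples. With the replicate block 3659 genes passed in place of 4182, and Ccnd1 had an edgeR adjusted p of 0.0956. Ccnd3 was at 0.0036 without control replicates 1 and 2, and Rbl2 at -0.011 with upper-quartile factors, -0.0068 without control replicates 1 and 2, and from -0.004 (without mimic replicate 1) to 0.022 (without mimic replicate 6) when single libraries were left out; neither passed in any fit. With upper-quartile factors 11 genes around the members were lower in place of 7. Of all genes tested, 1934 were then higher and 2465 lower, in place of 2163 and 2019. Without 1 library the number of genes called ran from 3494 to 5150, the highest without control replicate 1, and of the genes around the members 41 to 44 were higher and 5 to 8 lower; without control replicates 1 and 2 these were 45 and 10. With 8-base sites only, the members with a seed match remained 0, which was fixed beforehand because these sites are among the matches already counted. Per longest coding transcript, control levels were 85.6 (Ccnd2), 50.0 (Cdk4), 26.8 (Ccnd1), 7.53 (Rbl2), 1.85 (Rbl1) and 1.09 (Cdk6) CPM per kilobase.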
